A study of Mus musculus with 24 samples.

Results

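The carbonic anhydrase genes of mouse mammary gland and mammary tumor were followed in 24 RNA-seq samples. The family was taken up because Car3, Car6 and Car12 carried large loadings on the first principal component (PC1) of these same data. The 10 members were Car2, Car3, Car4, Car5b, Car6, Car8, Car9, Car12, Car13 and Car14, matched by Ensembl identifier and GENCODE M1 symbol, and they stood among 37991 genes and among 16 carbonic anhydrase genes of the count table. PyMT samples came from female mice heterozygous for the MMTV-PyMT transgene, in which the mouse mammary tumor virus promoter drives the polyoma middle T antigen mainly in mammary epithelium, on the FVB background. FVB control samples came from age-matched females of the same strain without the transgene, and 3 mice of each genotype were sampled at weeks 6, 8, 10 and 12. PyMT tissue was mammary gland with hyperplasia at week 6, and tumor at the later weeks, namely adenoma/MIN (week 8), early carcinoma (week 10) and late carcinoma (week 12). FVB tissue was whole mammary gland at each week, with no other treatment in any group.

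Carbonic anhydrases are enzymes that interconvert carbon dioxide and bicarbonate, and the proton released or taken up ties them to the control of pH. Their active site holds a zinc ion on a trio of histidines. Members differ mainly in place: Car2, Car3 and Car13 act in the cytosol, Car5b in mitochondria, Car4, Car9, Car12 and Car14 at the cell membrane facing outward, and Car6 is secreted, best known from saliva and milk. Car8 is a related protein without enzyme activity. Car3 is abundant in fat cells and slow skeletal muscle, and Car9 is a textbook target of the hypoxia-inducible factors (HIF).

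The short coding stretch around the first histidines of the zinc site is shown for Car2, Car3, Car6 and Car12 and for the inactive relative Car8, because it shows what the active members share. Each is 21 bases, read 5′ to 3′ on the coding strand from mm9 with GENCODE M1 transcripts, and the capitals mark the codons aligned with the first pair of zinc-binding histidines of Car2.
Car2, chr3:14895063-14895083, plus strand: cagtttCACtttCACtggggc
Car3, chr3:14866844-14866864, plus strand: caattcCATcttCACtggggc
Car6, chr4:149571490-149571510, minus strand: gcctttCACtttCACtggggg
Car12, chr9:66595448-66595468, plus strand: cagctgCACttgCACtggggg
Car8, chr4:8148754-8148774, minus strand: gaagttAGAtttCACtgggga
Every stretch lies within 1 coding exon. All 3 aligned histidines were present in the translated coding sequences of 9 of the 10 members, and Car8 had 2 of them. The closest pairs in translated sequence were Car13 and Car3 with 60.8% identical residues, Car2 and Car3 with 56.9%, and Car13 and Car2 with 56.5%.

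Values below are normalized counts, which are deposited read counts divided by DESeq2 size factors, unless another scale is named. Total counts ran from 6969375 to 13516601 per sample. A gene entered the tests when 12 or more of the 24 samples had a CPM (counts scaled to library size) of 1 or more, which kept 14918 genes and 9 of the 10 members. Car14 fell below that filter. Car6 passed it through PyMT, with 12 PyMT and 2 FVB samples at 1 CPM, Car4 through FVB, with 12 FVB and 5 PyMT samples, and Car9 mostly through PyMT, with 11 PyMT and 3 FVB samples, so a count of changed genes over the tested members is no support for a change of the family. In 13 libraries (6 PyMT and 7 FVB) low counts clustered at 8 to 25 reads, so that the low counts of a gene were often 0 or a single such packet. Among 3799 genes of middle level, 4.396% had no read in FVB week 10 replicate 3 and 2.87% in PyMT week 8 replicate 2, against at most 1.92% in the other libraries. These 2 libraries are followed through the results.

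PC1 took up 66.8% of the variance of the 500 most variable genes. By the size of the loading Car3 ranked 2, with -0.0771, Car6 ranked 3, with 0.0762, and Car12 ranked 6, with 0.0740. The other 6 tested members were not among the 500 genes, their variance ranks running from 1047 for Car2 to 10448 for Car13. Car3, Car6 and Car12 were thus chosen by the difference between PyMT and FVB, and their differences are given as a description without a test. Car2, Car4, Car5b, Car8, Car9 and Car13 were tested at each week with the quasi-likelihood test of edgeR and Benjamini-Hochberg adjustment over all 14918 genes. A gene was called when its adjusted p was below 0.05 and its log2 fold change was larger than 1 in either direction. Here and below a positive log2 fold change means a higher level in PyMT. A lack of overlap between groups of 3 samples is given as a description, and its share among all tested genes was not computed.

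Car3, the cytosolic enzyme of fat cells, was the most abundant member in every FVB sample and lay at a small part of that level in PyMT. In FVB the samples of replicates 1, 2 and 3 held 59723, 40577 and 50387 at week 6, 83678, 45169 and 56954 at week 8, 66430.4, 68323 and 103788 at week 10, and 80886, 59204 and 94953 at week 12. In PyMT they held 5342, 5832 and 7892 at week 6, 5258, 949 and 2902 at week 8, 1265, 3009.7 and 2699.7 at week 10, and 3697, 2779 and 1650.5 at week 12. No PyMT sample came near the FVB range, and the lowest PyMT value was that of week 8 replicate 2. The log2 fold change was -2.99 (SE 0.28) at week 6, -4.32 (SE 0.65) at week 8, -5.05 (SE 0.40) at week 10 and -4.81 (SE 0.36) at week 12, and -4.30 (SE 0.25) averaged over the weeks. Within PyMT all week 12 values lay below all week 6 values, a log2 difference of -1.23 (SE 0.45) that did not pass the edgeR quasi-likelihood test over all genes (unadjusted p = 0.0123, adjusted p = 0.51).

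Car6, the secreted enzyme, showed the reverse pattern from near absence. FVB samples held 0, 2.31 and 3.52 at week 6, 3.78, 22.1 and 13.6 at week 8, 0, 1.00 and 3.13 at week 10, and 6.73, 0 and 6.56 at week 12. PyMT samples held 1173, 2412 and 1272 at week 6, 1169, 9212 and 351 at week 8, 1755, 675 and 2306 at week 10, and 1059, 1048 and 983 at week 12. The groups lay far apart at each week, and week 8 held both the lowest and the highest PyMT value. Since FVB reads were so few, the ratio was taken from summed reads: 5874 reads in PyMT against 7 in FVB at week 6, a ratio after scaling of 719 (95% counting interval 349 to 1789). The same ratio was 228 (163 to 329) from 11646 against 34 reads at week 8, 1652 (565 to 8015) from 5321 against 3 reads at week 10, and 229 (128 to 459) from 3075 against 11 reads at week 12. These intervals cover counting error only, and reads that come in packets are not independent. The value of 9212 belongs to PyMT week 8 replicate 2, and without that library the fitted log2 fold change of week 8 fell from 8.03 to 5.86. Week 12 of PyMT lay below week 6 in every sample, by a log2 difference of -0.64 (SE 0.72, adjusted p = 0.981 by edgeR).

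Car12, a membrane enzyme facing outward that is known from secretory epithelia and from breast tumors, was low in FVB, with reads in every sample, and high in PyMT. In PyMT it stood at 1846, 2735 and 1917 at week 6, 2086, 2453 and 1971 at week 8, 1976, 1741 and 2634 at week 10, and 2971, 2966 and 3584 at week 12. FVB levels were 29.0, 50.9 and 53.7 at week 6, 10.1, 27.9 and 57.6 at week 8, 25.2, 26.1 and 62.6 at week 10, and 2.69, 113 and 30.6 at week 12. The groups lay far apart at each week, and the highest FVB value came from week 12 replicate 2, without which the log2 fold change of that week was 7.52. The log2 fold change was 5.58 (SE 0.31) at week 6, 6.08 (SE 0.54) at week 8, 5.91 (SE 0.42) at week 10 and 6.06 (SE 0.87) at week 12. Within PyMT all week 12 values exceeded all week 6 values, by 0.56 on the log2 scale (SE 0.55, adjusted p = 0.954 by edgeR), so the difference did not pass the test.

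**Figure D1:**
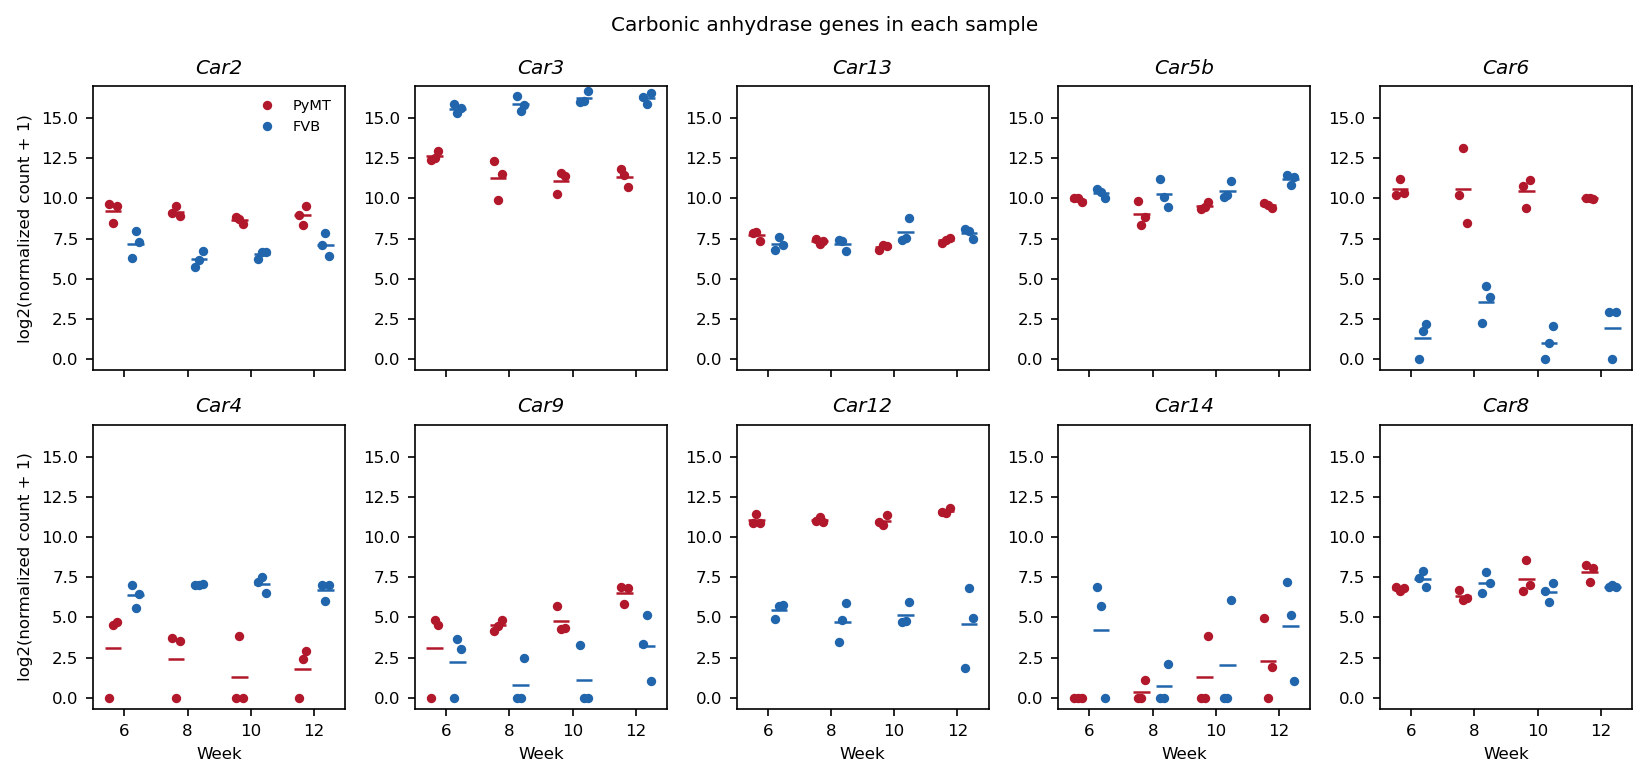
Each panel plots log2 of the normalized count plus 1 (vertical axis) by week (horizontal axis) for 1 of the 10 members, with a point for each mouse, a short line at the mean of 3 and PyMT in red beside FVB in blue. Car3 and Car4 sit lower and Car6, Car12 and Car2 sit higher in PyMT than in FVB at every week without overlap, whereas the points of Car13 overlap at weeks 6, 8 and 12.

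Among the cytosolic members that the choice did not rest on, Car2 was higher in PyMT at every week. PyMT samples held 789.7, 362 and 727 at week 6, 558, 744 and 476 at week 8, 453, 424 and 346 at week 10, and 502, 329 and 738 at week 12. FVB samples held 78.8, 246 and 154 at week 6, 51.7, 70.9 and 106 at week 8, 74.0, 101 and 102 at week 10, and 136, 229 and 83.1 at week 12. All 12 PyMT values exceeded all 12 FVB values, a separation that 4.67% of the tested genes showed in this direction. Car2 rose at week 6 (log2 fold change 1.97, SE 0.46, adjusted p = 0.029 by edgeR), at week 8 (2.96, SE 0.34, adjusted p = 0.00443), at week 10 (2.20, SE 0.29, adjusted p = 0.00227) and at week 12 (1.86, SE 0.42, adjusted p = 0.0137). Averaged over the weeks in a fit of all 24 samples the log2 fold change was 2.23 (SE 0.21, adjusted p = 2.31e-08). The week 6 call was lost without PyMT replicate 1 (adjusted p = 0.0983), PyMT replicate 3 (adjusted p = 0.0921) or FVB replicate 3 (adjusted p = 0.0716), and the week 12 call without PyMT replicate 3 (adjusted p = 0.0592). A block for the replicate number also ended the week 6 call (adjusted p = 0.0768 by edgeR).

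Car13, also cytosolic, overlapped between the genotypes at weeks 6, 8 and 12. PyMT samples ran from 109 to 239.9 with a median of 163, and FVB samples from 104 to 444 with a median of 176. At week 10 PyMT samples, with 109, 136 and 131, lay below FVB samples, with 169.6, 187 and 444, and the highest value was that of FVB week 10 replicate 3. No week passed the test, although week 10 (-1.03) was called when all 24 samples shared 1 fit (-1.05, adjusted p = 0.0301 by edgeR). Averaged over the weeks the log2 fold change was -0.21 (SE 0.17, adjusted p = 0.328 by edgeR). Scaling to library size alone turned that value to 0.11.

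These 3 cytosolic genes lie together on chromosome 3 with Car1, in the order Car13, Car1, Car3, Car2 over 259043 bases of mm9. Car3 (chr3:14863538-14872351) and Car2 (chr3:14886426-14900769), both on the plus strand, are 14074 bases apart. The averaged log2 fold changes of the neighbours were -4.30 for Car3 and 2.23 for Car2, of opposite sign, and -0.21 for Car13 (chr3:14641727-14663002, plus strand). Car1, on the minus strand between Car13 and Car3, was a low gene with at most 23.5 in FVB and 1.07 in PyMT, and it was not tested.

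Car5b, the mitochondrial member, was lower in PyMT at the late stage. At week 12 PyMT samples held 839.9, 767 and 675 and FVB samples 2876, 1834 and 2586, without overlap. At week 10 the values were 647, 697 and 867 against 1101, 1195 and 2178, and at week 8 they were 924, 328 and 459 against 2411, 1077 and 715. Week 6, with 1045, 1023 and 867 in PyMT and 1548, 1349.8 and 1036 in FVB, gave the smallest gap. Car5b was lower in PyMT than in FVB at week 12 (log2 fold change -1.63, SE 0.21, adjusted p = 0.00105 by edgeR), while week 6 (-0.43, adjusted p = 0.211), week 8 (-1.28, adjusted p = 0.161) and week 10 (-0.96, adjusted p = 0.0563) did not pass. From week 6 to week 12 the mean went from 1311 to 2432 in FVB and from 978 to 761 in PyMT. The log2 differences were 0.858 (SE 0.38) and -0.355 (SE 0.38), and edgeR called neither. All week 12 values lay above all week 6 values in FVB and below them in PyMT. Week 8 passed in 3 of 13 alternatives, with no filter (-1.26, adjusted p = 0.0387), with all 24 samples in 1 fit (-1.28, adjusted p = 0.0218) and with a block for the replicate number, and without FVB week 8 replicate 1 it was -0.62. The average over weeks was -1.09 (SE 0.19, adjusted p = 6.45e-05), just beyond the fold threshold. It stood inside that threshold with library size scaling (-0.75) and without FVB week 8 replicate 1 (-0.93), PyMT week 8 replicate 2 (-0.99) or FVB week 10 replicate 3 (-0.997), and without the latter 2 libraries together (-0.92), always with an adjusted p under 0.05.

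Car4, anchored to the outer membrane and known from capillary endothelium, was lower in PyMT. FVB samples held 131, 47.0 and 88.1 at week 6, 129.9, 131 and 134 at week 8, 148, 185 and 89.2 at week 10, and 130.5, 64.3 and 129 at week 12. PyMT samples held 0, 21.9 and 25.5 at week 6, 12.4, 0 and 10.6 at week 8, 0, 13.6 and 0 at week 10, and 0, 4.27 and 6.47 at week 12. Every PyMT value lay below every FVB value, as for 7.22% of tested genes, and 5 PyMT samples had no read. Car4 fell at week 12 (log2 fold change -4.79, SE 0.92, adjusted p = 0.00646 by edgeR) and averaged over the weeks (-4.08, SE 0.69, adjusted p = 4.31e-05). Week 8 passed narrowly (-4.04, adjusted p = 0.0497), and week 6 (-2.48, adjusted p = 0.239) and week 10 (-4.95, adjusted p = 0.0625) did not. The week 8 call was lost in 7 of 13 alternatives, among them the removal of PyMT replicate 1 or 3 or of any FVB replicate (adjusted p up to 0.131), and week 10 was called in 6 of 13, among them the removal of FVB replicate 3 (adjusted p = 0.0365) or PyMT replicate 2 (adjusted p = 0.0102). Without the latter both remaining PyMT samples had no read, and the fitted value of -10.20 then depends on the prior count.

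Car9, the HIF-inducible membrane enzyme, was a low gene whose highest levels were those of late carcinoma. PyMT samples held 0, 28.2 and 22.1 at week 6, 17.2, 21.6 and 27.6 at week 8, 51.6, 18.9 and 19.6 at week 10, and 117, 55.6 and 114 at week 12. FVB samples held 0, 11.6 and 7.05 at week 6, 0, 0 and 4.52 at week 8, 8.62, 0 and 0 at week 10, and 9.42, 35.3 and 1.09 at week 12. PyMT lay above FVB without overlap at weeks 8, 10 and 12. Car9 rose averaged over the weeks (log2 fold change 2.76, SE 0.81, adjusted p = 0.00728 by edgeR), and no single week passed, week 12 coming closest (2.69, SE 0.95, adjusted p = 0.0672). Without FVB week 12 replicate 2, which held 35.3, week 12 passed with 4.21 (adjusted p = 0.0113), as it did with DESeq2's Wald test (adjusted p = 0.0135). In PyMT the week 12 samples all exceeded the week 6 samples, by a log2 difference of 2.51 (SE 1.56, adjusted p = 0.854 by edgeR). Several Car9 counts were close to 1 packet of their library, such as 27 reads in PyMT week 6 replicate 2 where the packet was 25, and 23 reads in PyMT week 8 replicate 2 where it was 23. Car9 also shares 214 exon bases with Gm12454 on the opposite strand, and whether counting used strand is not given in the sources used here.

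Car14, the remaining membrane member, had reads in few samples and fell below the filter. PyMT samples were at 0 except week 8 replicate 3 with 1.18, week 10 replicate 3 with 13.6, and week 12 replicates 1 and 3 with 29.8 and 2.77. FVB samples held 117, 50.9 and 0 at week 6, 0, 0 and 3.39 at week 8, 0, 0 and 67.3 at week 10, and 147, 35.3 and 1.09 at week 12. High and absent values stood side by side within FVB weeks, and the genotypes overlapped at every week. The FVB samples with 35.3 or more also held the highest summed levels of 10 skeletal muscle markers, 5889 to 548499. In the other FVB samples that sum was at most 1205. PyMT week 6 replicate 1 had a sum of 31184 and no Car14 read. The part of muscle in the level of Car14 was not tested. With a filter of 1 CPM in 3 or more samples Car14 was tested, and its averaged log2 fold change was -3.63 (SE 1.31, adjusted p = 0.0293 by edgeR), while no single week passed, week 6 being closest (adjusted p = 0.0913). Car14 shares 445 exon bases with Aph1a on the opposite strand, so reads of the 2 genes could not be told apart if strand was not used.

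Car8, the family member without enzyme activity, had its values in PyMT mostly below FVB at weeks 6 and 8 and above it at week 12. At week 6 PyMT samples held 118, 101 and 113 against 177, 238 and 116 in FVB, and at week 8 they held 106, 66.6 and 72.3 against 89.6, 223 and 144. At week 10 the values were 98.8, 379 and 131 against 99.2, 61.1 and 141, and at week 12 they were 306, 147 and 267 against 117, 127 and 116. The groups overlapped until week 10 and were apart at week 12. Car8 rose at week 12 (log2 fold change 1.05, SE 0.32, adjusted p = 0.0411 by edgeR), a call lost in 7 of 13 alternatives, among them the removal of any of the 3 FVB replicates or of PyMT replicate 1 or 3 (adjusted p up to 0.133). Weeks 6, 8 and 10 gave -0.69, -0.88 and 1.06, none of them called, and the average over weeks was 0.12 (adjusted p = 0.687). The change of the difference from week 6 to week 12 was 1.71 (SE 0.66), with an unadjusted p of 0.0162 and an adjusted p of 0.973 by edgeR.

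**Figure D2:**
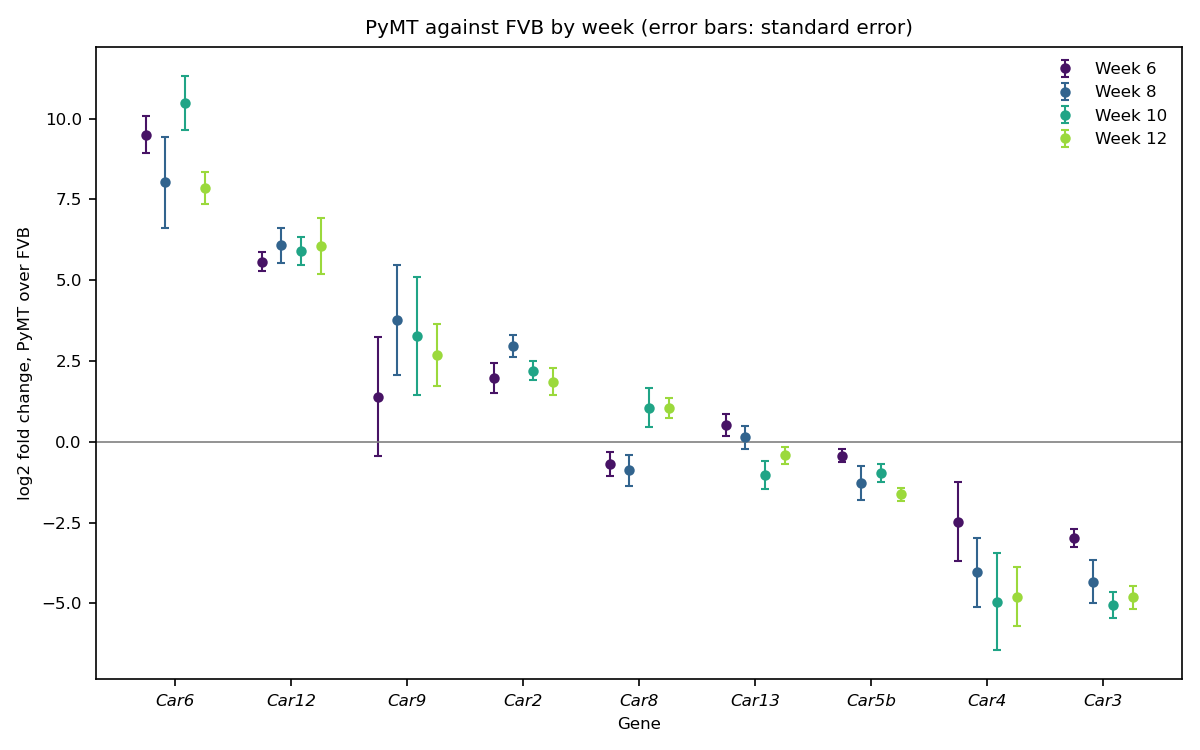
The vertical axis gives the log2 fold change of PyMT over FVB and the horizontal axis the 9 tested genes, with a point for each week coloured from dark (week 6) to light (week 12) and bars of 1 standard error. Car6 and Car12 lie between 5.58 and 10.49, Car3 between -5.05 and -2.99, and Car8 goes from -0.69 at week 6 to 1.05 at week 12. Car3, Car6 and Car12 were chosen by this difference.

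Of the 6 tested members that the choice did not rest on, 1 was called higher and 0 lower at week 6, where 3.58% and 6.46% of all tested genes were. At week 8 the counts were 1 and 1 (all genes 3.57% and 6.37%), at week 10 they were 1 and 0 (4.83% and 9.09%), and at week 12 they were 2, Car2 and Car8, and 2, Car4 and Car5b (7.75% and 13.0%). Averaged over the weeks, 2 were higher, Car2 and Car9, and 2 lower, Car4 and Car5b, where 8.70% and 17.5% of all tested genes were. With 6 genes each of these shares rests on single members. Car9 passed the filter mostly through PyMT and Car4 through FVB, so these counts are no support for a change of the family. Without the 2 libraries with the most genes at 0, the averaged log2 fold changes were 2.21 for Car2, 2.65 for Car9 (adjusted p = 0.0128 by edgeR) and -4.00 for Car4. For week 12 against week 6, 0 of the 9 tested members were called in PyMT, in FVB, or for the change of the difference, and 0% of all genes were called in each of these edgeR tests. At an unadjusted p under 0.05 edgeR passed 1004 genes in PyMT, 625 in FVB and 691 for the change of the difference, and DESeq2's Wald test called 97, 19 and 10 genes but no member. Members under that unadjusted level in edgeR were Car3 and Car8 in PyMT, Car5b in FVB, and Car3, Car5b and Car8 for the change of the difference. In FVB and for the change of the difference, the counts of genes were below a share of 0.05 of the 14918 tested. Such a threshold passes that share with no true difference, so the members named there are no support for a change.

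Levels of different members were compared as normalized counts per kb of exon. In PyMT the medians per kb over 12 samples were 1961 for Car3, 645 for Car6, 500.03 for Car12, 273 for Car2 and 126 for Car5b. Car3 exceeded Car6 in 10 of 12 PyMT samples and Car6 exceeded Car12 in 7 of 12, with overlapping ranges, whereas Car2 and Car5b did not overlap. Car13 (71.0 per kb), Car8 (30.01), Car9 (10.8), Car4 (2.73) and Car14 (0) followed, each overlapping its neighbour. In FVB the median per kb was 41856 for Car3 and 228 for Car5b, with ranges apart, and then 76.4 for Car13, 66.2 for Car4, 56.7 for Car2 and 31.7 for Car8, each overlapping the next. Car12 (6.56 per kb), Car6 (1.83), Car9 (1.22) and Car14 (0.882) closed the FVB order. Car6 and Car12 were thus near the bottom of the order in FVB and next to Car3 at its top in PyMT.

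As a share of the summed level per kb of all 16 carbonic anhydrase genes, Car3 made up 97.9% to 99.1% in FVB (median 98.8%) and 9.26% to 74.4% in PyMT (median 58.9%). The lowest PyMT share was that of week 8 replicate 2, where Car6 made up 74.6%. Over the 12 PyMT samples the median share was 14.9% for Car6, 13.0% for Car12 and 6.31% for Car2. The summed level per kb was 27516 to 69680.3 in FVB and 2701 to 7036 in PyMT. With Car3 left out the order turned, with 379 to 861 per kb in FVB and 1079 to 6169 in PyMT, without overlap. These sums contain the genes chosen by the genotype difference and carry no test.

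**Figure D3:**
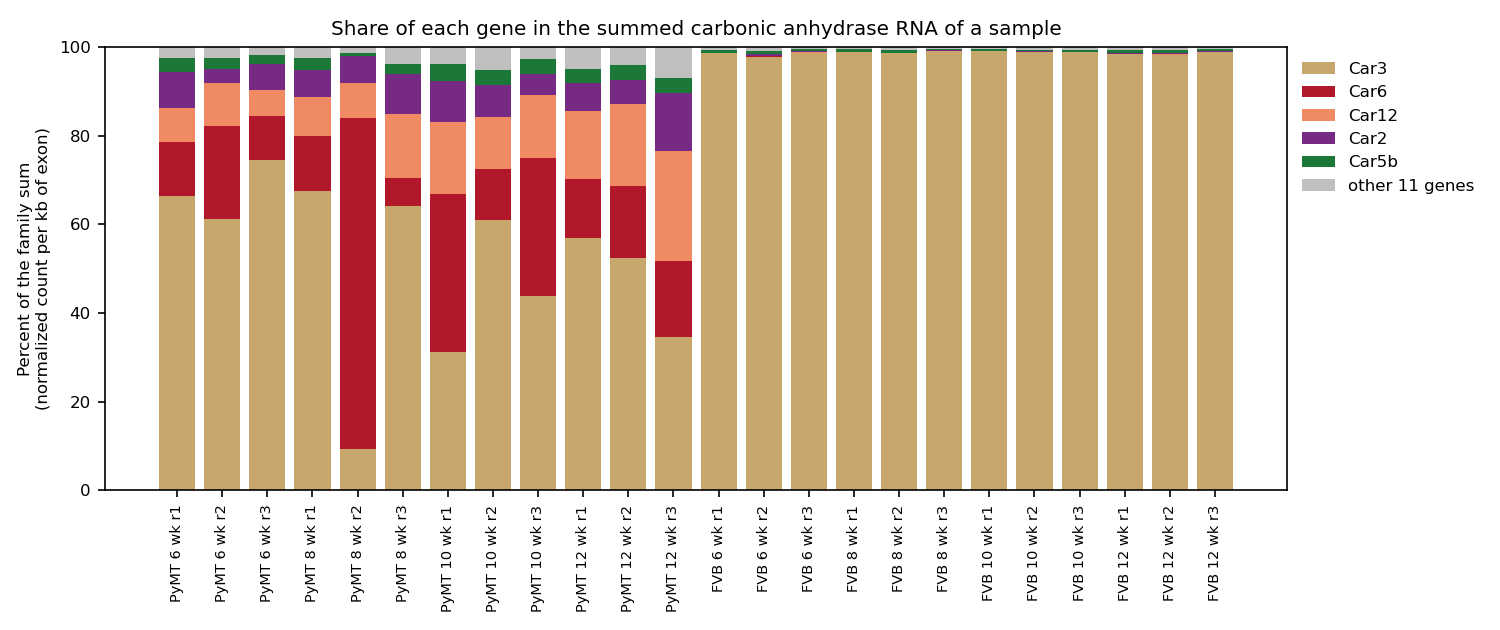
Each bar is 1 sample, and the vertical axis gives the percent of the summed normalized count per kb of exon over 16 carbonic anhydrase genes, split into Car3, Car6, Car12, Car2, Car5b and the other 11 genes. Car3 fills 97.9% or more of every FVB bar, and PyMT bars are shared mainly among Car3, Car6, Car12 and Car2.

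The 6 carbonic anhydrase genes outside the 10 members were low. Car1, Car5a, Car10 and Car15 were below the filter. Car7, a cytosolic enzyme known from neurons, had a median of 37.3 in FVB and 0 in PyMT, and fell averaged over the weeks (log2 fold change -5.02, SE 0.97, adjusted p = 0.000250 by edgeR). Car11, an inactive relative, had medians of 35.9 and 0.871 and fell likewise (-3.75, SE 0.77, adjusted p = 0.000352). Both passed the filter through FVB, with 11 FVB samples each at 1 CPM against 1 and 3 PyMT samples. Their tests are therefore given as a description and are no separate support for a lower level in PyMT.

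Whole tissue was sequenced, and fewer cells of a type and less RNA per cell cannot be told apart in such samples. The marker genes of cell types moved with genotype. All 8 adipocyte markers were called lower in PyMT over the averaged weeks (median log2 fold change -3.93, all tested genes -0.03), and their summed level was 1377 to 15798 in PyMT samples and 45919 to 132542 in FVB samples. Of 8 luminal epithelium markers 6 were called higher and 0 lower (median 1.61), and their summed level reached from 21656 to 40983 in PyMT samples and from 4338 to 19743 in FVB samples. All 7 tested milk secretion genes were higher (median 3.67), and all 6 tested genes of hormone-sensing epithelium were lower (median -3.20). Of 8 macrophage markers 0 were called. The part of these cell types in the differences of Car6, Car12, Car2 and Car9 was not tested.

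Car3 followed the adipocyte markers within each genotype. Over the 12 PyMT samples, log2 of the normalized count plus 1 of Car3 and the mean of 8 adipocyte markers on that scale had a Pearson's r of 0.932 (permutation p = 1e-05, the smallest that 100000 resamples can give, adjusted 0.00014 over 14 relations) and a Spearman's rho of 0.965 (permutation p = 1e-05). With the 2 most extreme marker means left out r was 0.896, and with each week centred r was 0.907 (exact permutation p within weeks 0.000772, adjusted 0.0108). Over the 12 FVB samples r was 0.911 (permutation p = 4e-05, adjusted 0.00028), rho 0.916 (permutation p = 8e-05), r without the 2 most extreme samples 0.836 and r with weeks centred 0.854 (exact permutation p 0.00386, adjusted 0.027). PC1 was drawn from all 24 samples, so variation within a genotype also entered the loading of Car3. Skeletal muscle also holds Car3, and 9 of 10 skeletal muscle markers were called lower in PyMT over the averaged weeks (median log2 fold change -4.67). These markers, whose summed level ran from 137 to 548499 among FVB samples and 75.5 to 31184 among PyMT samples, had an r with Car3 of 0.195 in FVB (permutation p = 0.536, rho 0.203, permutation p = 0.527) and 0.407 in PyMT (permutation p = 0.189, rho 0.259, permutation p = 0.415). Neither passed adjustment (0.746 and 0.552). The part of fat tissue or muscle in the difference of Car3 between genotypes was not tested.

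The other relations did not pass adjustment over the 14 computed. Car2 is abundant in red blood cells, and 4 of 5 tested erythrocyte markers were called lower in PyMT, where Car2 was higher. Car2 and the erythrocyte markers had an r of -0.145 over PyMT (permutation p = 0.648, rho -0.133, permutation p = 0.682) and -0.191 over FVB (permutation p = 0.544, rho -0.266, permutation p = 0.404). Car12 and the mean of 6 hormone-sensing genes had an r of -0.179 over PyMT (permutation p = 0.586, rho -0.252, permutation p = 0.430), and with weeks centred it was -0.76 (exact permutation p 0.0147, adjusted 0.0686). Over FVB the r of Car12 was 0.277 (permutation p = 0.372, rho 0.287, permutation p = 0.367), and 0.656 with weeks centred (exact permutation p 0.171), of the opposite sign. Car6 and the mean of 7 milk secretion genes had an r of -0.189 over the PyMT samples (permutation p = 0.559, rho 0.322, permutation p = 0.310, adjusted 0.746), which was 0.41 without the 2 farthest samples and -0.457 with weeks centred. Over FVB the r of Car6 was 0.125 (permutation p = 0.696, rho 0.169, permutation p = 0.601), -0.165 without the 2 farthest samples and 0.448 with weeks centred. Car4 and endothelial markers had an r of 0.593 over the FVB samples (permutation p = 0.0409, rho 0.231, permutation p = 0.472, adjusted 0.191), which fell to 0.14 without the 2 farthest samples and was 0.68 with weeks centred. All 8 endothelial markers were themselves called lower in PyMT (summed level 751 to 2158 against 4924 to 9090.0 in FVB). The part of endothelium in the lower level of Car4 was not tested.

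**Figure D4:**
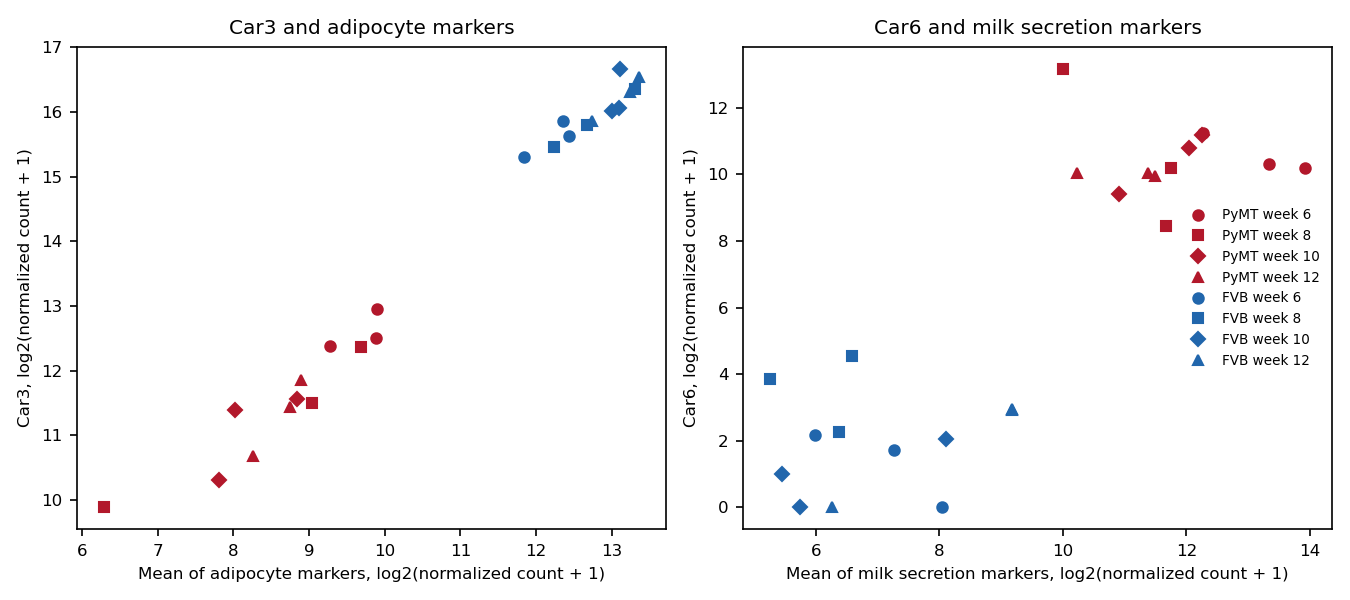
Points are single samples, with the mean log2 level of marker genes on the horizontal axis and the log2 normalized count plus 1 of the gene on the vertical axis, PyMT in red, FVB in blue and a symbol for each week. On the left Car3 climbs with the adipocyte markers in both genotypes (r of 0.932 and 0.911), and on the right Car6 shows no such line with the milk secretion genes (r of -0.189 in PyMT).

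Car6 is a classic salivary gland enzyme, so salivary gland genes were read beside it. Prb1 and Sval1, which encode salivary secretory proteins, and Muc19 had no read in any of the 24 samples, and Smr3a had a read in 1 PyMT sample. Bpifa2, also of this list of 8 genes, was not found in the count table. Dcpp2, a demilune cell gene, had reads in 10 PyMT samples and 1 FVB sample (highest 112 and 1.13), and Dcpp1 had reads in 7 and 1 (highest 61.9 and 1.26). Amy1, the salivary amylase gene, which is not restricted to that gland, was lower in PyMT (10.7 to 167) than in FVB (589 to 1614).

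Genes that work beside the enzymes were read against the averaged background of 8.70% of tested genes higher and 17.5% lower. Of 9 tested bicarbonate transporters 2 were called higher over the averaged weeks, the anion exchangers Slc26a7 (log2 fold change 3.70, adjusted p = 0.00246 by edgeR) and Slc26a9 (3.38, adjusted p = 0.00161), and 4 lower, among them the sodium-dependent bicarbonate transporters Slc4a4 (-2.71) and Slc4a8 (-2.45), with a median over the list of -1.06. Of 11 proton and lactate transporters 0 were higher and 3 lower, the proton channel Hvcn1 (-2.35), the lactate exporter Slc16a3 (-2.09) and the sodium-proton exchanger Slc9a9 (-1.52), with a median of -0.76. Slc16a3 was a low gene with overlapping ranges, 0 to 42.6 in PyMT (median 19.8) and 0 to 467 in FVB (median 29.7). Of 14 HIF target genes 2 were higher and 8 lower, among them Pfkfb3 (-3.09), Bnip3 (-2.98), Hk2 (-1.99) and Vegfa (-1.84), with a median of -1.29, where Car9 itself was higher. The median of all tested genes was -0.03. Among FVB samples the HIF list summed highest, 64451 to 80333, in week 6 replicate 1, week 10 replicate 3 and week 12 replicate 1. These samples also had the highest summed skeletal muscle markers. The other FVB samples held at most 40682 for the HIF list, and PyMT samples 13475 to 29916. Pfkfb3, Bnip3 and Vegfa did not overlap between the genotypes, whereas Hk2 did. The part of muscle in the level of the HIF list was not tested. Within genotypes Car9 and the mean of the 14 HIF genes had an r of -0.185 over PyMT (permutation p = 0.583, rho 0.0629, permutation p = 0.854) and -0.0961 over FVB (permutation p = 0.764, rho 0.0508, permutation p = 0.881).

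RefSeq promoter windows of 300 bases on GRCm38.p6, from 250 bases before to 50 after the start, were found for 6 of the 10 members, Car4, Car5b, Car6, Car9, Car12 and Car14. The windows of the 3 outward or secreted members with higher levels in PyMT are shown because one of them, Car9, is a HIF target gene. The capitals mark ACGTG, the core of the HIF response element, and GCGTG, both searched on either strand.
Car9, chr4:43506776-43507075, plus strand: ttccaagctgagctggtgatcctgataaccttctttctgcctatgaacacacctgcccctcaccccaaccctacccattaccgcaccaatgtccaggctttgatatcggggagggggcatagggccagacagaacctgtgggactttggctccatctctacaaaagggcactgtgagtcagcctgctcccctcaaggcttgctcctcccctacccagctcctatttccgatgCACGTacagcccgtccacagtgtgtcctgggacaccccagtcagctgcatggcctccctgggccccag
Car6, chr4:150201086-150201385, minus strand: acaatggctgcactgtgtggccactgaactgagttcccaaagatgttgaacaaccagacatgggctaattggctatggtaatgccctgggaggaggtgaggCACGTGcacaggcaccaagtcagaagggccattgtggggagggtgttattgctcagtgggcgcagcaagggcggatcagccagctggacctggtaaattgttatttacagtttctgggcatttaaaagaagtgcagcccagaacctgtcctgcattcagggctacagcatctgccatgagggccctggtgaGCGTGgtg
Car12, chr9:66713436-66713735, plus strand: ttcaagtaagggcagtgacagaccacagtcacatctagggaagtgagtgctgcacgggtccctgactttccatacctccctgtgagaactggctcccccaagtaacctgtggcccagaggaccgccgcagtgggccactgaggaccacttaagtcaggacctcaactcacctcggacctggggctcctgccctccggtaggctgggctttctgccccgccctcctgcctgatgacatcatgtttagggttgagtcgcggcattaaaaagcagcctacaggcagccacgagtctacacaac
Car9 held ACGTG once, Car6 held it on both strands of 1 palindrome beside 1 GCGTG, and Car12 held neither. Among the windows not shown, Car4 and Car14 held ACGTG once each and Car5b held GCGTG 5 times. These genes had lower averaged levels in PyMT. ACGTG was found in 19.6% and GCGTG in 32.4% of 32851 RefSeq promoter windows of the same length.

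The genes whose pattern over the 24 samples was most like that of each chosen member were named by Pearson's r on log2 of the normalized count plus 1. For Car3 they were Abcd2 (0.990), the lipid droplet coat gene Plin1 (0.990), the caveola gene Cav1 (0.990), Slc1a5 (0.989) and the lipoprotein lipase gene Lpl (0.989), and within PyMT alone these r ran from 0.897 to 0.942. For Car6 they were Secisbp2l (0.961), Nucb2 (0.959), Surf4 (0.956), Trabd (0.954) and Enpp3 (0.952), with 0.260 to 0.698 within PyMT. For Car12 they were D10Bwg1379e (0.975), 1600029D21Rik (0.969), Col9a1 (0.967), Slc28a3 (0.966) and Npnt (0.958), with -0.240 to 0.507 within PyMT. The 24 points share the genotype difference by which the 3 genes were chosen.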

How the data were processed

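Per the paper's methods and the submitters' processing notes, the authors made directional libraries from ribosome-depleted total RNA, ran GSNAP against mm9 and HTSeq for gene counting, and deposited raw counts, 1 column per sample, not normalized. The strand setting of the counting and the annotation release are not given in the sources used here. GENCODE M1 on mm9 gave symbols, exon lengths and positions for 37205 of 37991 genes. The members and gene lists were chosen with earlier results of these data known.

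Genes with at least 1 CPM in at least 12 of 24 samples were tested. Each week's 3 PyMT and 3 FVB samples were fitted with edgeR 4.0.16 (R 4.3.3), TMM scaling, quasi-likelihood test and Benjamini-Hochberg adjustment, and averaged, week and change contrasts came from 1 fit of all samples in 8 groups. The scripts were tested on simulated data. The SE of a log2 fold change was its size divided by the square root of the F statistic of the quasi-likelihood test. Normalized counts used DESeq2 1.42.0 size factors. The log2 scale added 1. Counting intervals are exact binomial intervals at 95%. Correlations used two-sided permutation tests (SciPy 1.17.1) over 14 relations, with exact permutation within weeks. PCA used the 500 most variable genes after DESeq2's variance stabilization. Named genes were the members, the other family genes, the 5 genes most like Car3, Car6 and Car12, and up to 4 called genes of each pathway list by fold. Alternatives were DESeq2's Wald test, library size only, RLE size factors, no filter, a filter of 1 CPM in 3 samples, the replicate block, 1 fit of all samples, another pseudocount and each replicate left out. Leaving out 2 libraries with many genes at 0 was added after seeing the data. Each sample is 1 mouse. Batch and litter of the samples were not given in the labels.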

Additional observations from a re-analysis of the deposited data

How the results depend on the processing

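The direction of the called differences was kept in each alternative. The number of members called changed as follows. At week 6 the count of 1 became 0 with the replicate block, where Car2 had a log2 fold change of 2.03 (adjusted p = 0.0768 by edgeR), and 0 to 1 with 1 replicate left out. At week 8 the count of 2 became 1 with library size only, 3 with no filter, 3 with all 24 samples in 1 fit, and 1 to 2 with 1 replicate left out. The replicate block kept 2 by losing Car4 (adjusted p = 0.0841) and gaining Car5b (adjusted p = 0.045). At week 10 the count of 1 became 2 with DESeq2's Wald test, 2 with no filter, 2 with the replicate block, 3 with all 24 samples in 1 fit, and 1 to 2 with 1 replicate left out. At week 12 the count of 4 became 2 without PyMT replicate 3 and ran from 2 to 4 over the replicates left out. It was 5 with DESeq2's Wald test, library size only or no filter, which added Car9, and 3 with the replicate block or all samples in 1 fit, which lost Car8 (adjusted p = 0.0861 and 0.127). Averaged over the weeks the count of 4 became 3 with library size only and without the 2 libraries with the most genes at 0, where Car5b fell short of the fold threshold, and ran from 3 to 4 over the replicates left out. The filter of 1 CPM in 3 samples left the counts of the 6 members as they were in each comparison. The cause of these changes was not tested. Whether the replicate numbers pair the samples was not settled. In their deviations from the group means the 12 same-numbered pairs correlated from -0.025 to 0.177, 4 of them over 0.1. Different-numbered pairs ran from -0.133 to 0.091, and 6 of 12 PyMT samples were nearest their own number. The main tests used no pairing, and the replicate block moved calls as given above. With library size only, all genes had a median log2 fold change of 0.27 in place of -0.03 over the averaged weeks, and against that median Car2 (2.50), Car9 (2.97), Car4 (-3.77) and Car5b (-0.75) kept their direction. The ratios of Car6 rest on 3 to 34 FVB reads a week, which sets the width of their intervals.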
